A study of Mus musculus with 7 samples.

Results

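The respiratory chain genes described here were 93 of the 39179 genes in a comparison of regulatory T cells labelled as Id2 and Id3 double knockouts with control regulatory T cells. The rule goes by symbol and uses no measured value, though it was proposed with earlier results of these data known: protein-coding genes named Nduf with a, b, c, s or v as the next letter, Sdha to Sdhd, Uqcr, Cox4 to Cox8 and Atp5. By complex, the rule took 45 genes of complex I, 4 of complex II, 8 of complex III, 18 of complex IV and 18 of complex V. The label held for most of these genes, with 75 of 93 being structural subunits in common use. The others were 7 assembly factors of complex I (Ndufaf1 to Ndufaf7) and 7 tissue-restricted isoforms of complex IV. There were also Ndufa4l2, a paralogue of Ndufa4, Atp5l-ps1, whose symbol marks it as a copy of Atp5l, and Atp5s and Atp5sl, which carry the symbol without being subunits of the enzyme.

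The respiratory chain sits in the inner mitochondrial membrane. Complex I takes electrons from NADH and complex II from succinate, coenzyme Q carries them to complex III, cytochrome c carries them on to complex IV, and complex IV hands them to oxygen. Complexes I, III and IV pump protons as they work, and complex V, the ATP synthase, lets the protons back and makes ATP. Most subunits are encoded in the nucleus, while a set of core subunits of complexes I, III, IV and V is encoded by mitochondrial DNA. Regulatory T cells, which hold immune responses in check under the transcription factor Foxp3, are known to rely on oxidative metabolism more than conventional effector T cells do.

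All libraries came from C57BL/6 mice, 3 weeks old, as RNA of CD4+TCRb+CD25hi Foxp3+ cells sorted from lymph node. In both groups a Cre recombinase driven by Foxp3 was present. Control cells (genotype Id2fl/+Id3fl/+Foxp3cre, 2 libraries) kept 1 normal allele of each gene, so they are heterozygous and not wild type after Cre, and double-knockout cells (dKO, Id2fl/flId3fl/flFoxp3cre, 3 libraries) carried floxed alleles alone. A separate pair without replicate numbers, sequenced on another instrument, had 1 library labelled control and 1 labelled dKO by title, with genotype tags the reverse of the titles. Its libraries are therefore named by title, as the library labelled control or dKO. No label says that libraries came from separate animals, so for the dKO libraries the spread behind the p-values may be technical.

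The replicated comparison was deposited as group means of scaled counts (reads over a library's size factor), with no value for a single library and no SD. A gene is said to have risen or fallen where the adjusted p (DESeq, Benjamini-Hochberg over 31641 tested genes) was under 0.05. The means summed to 38950892 scaled counts in control and 39948550 in dKO, and the size factors recovered from low values were 1.29 and 1.09 for the control libraries and 0.929, 0.910 and 0.860 for the dKO libraries. From Kdm5d and Uty, which are Y-linked, 601 reads lay in the deeper control library and 15 in the other, so the control libraries are not repeats of 1 RNA sample. They may differ in sex, and the balance of sexes between control and dKO was not examined. Id2 went from 783 to 61.1 scaled counts (adjusted p 1.48e-08) and Id3 from 1376 to 891 (adjusted p 0.209) in the authors' deposited table. Id3 transcript thus remained in the dKO group. Of the markers used for the sort, Foxp3 had group means of 13481 and 10942, Cd4 of 26431 and 32790, and Il2ra, which encodes CD25, of 32376 and 32127 in the authors' deposited table.

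The median log2 ratio of respiratory chain genes was slightly above 0 in each complex, with 7 genes that rose and 0 that fell in the authors' deposited table. Those 7 were Sdhb and Sdhd of complex II, Uqcr10 of complex III, Cox7a2 and Cox5a of complex IV, and Atp5k and Atp5g3 of complex V, by 1.3-fold to 1.4-fold in the authors' deposited table. Among all tested genes, 6.56% were called in either direction and 3.38% were called higher. The 7 of 93 members that rose are 7.53%, which is above the share called higher among all tested genes and close to the 7.68% called higher among other protein-coding genes of similar counts. At an unadjusted p under 0.05 the authors' deposited table had 21 members, 19 higher and 2 lower.

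The genes that rose are spread over the genome, given here in GRCm38 from the table. The complex II genes are Sdhb (ENSMUSG00000009863) on chromosome 4 from 140961203 to 140979193 and Sdhd (ENSMUSG00000000171) on chromosome 9 from 50596338 to 50603849. The complex III gene is Uqcr10 (ENSMUSG00000059534) on chromosome 11 from 4701973 to 4704342. For complex IV they are Cox7a2 (ENSMUSG00000032330) on chromosome 9 from 79755241 to 79759853 and Cox5a (ENSMUSG00000000088) on chromosome 9 from 57521232 to 57532424. For complex V they are Atp5k (ENSMUSG00000050856) on chromosome 5 from 108433244 to 108434448 and Atp5g3 (ENSMUSG00000018770) on chromosome 2 from 73908447 to 73911326. Chromosome 9 holds 3 of the 7, and also Ndufaf3, Uqcrc1 and Atp5l, members that did not pass. Grouping by chromosome was not tested.

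The direction was shared more widely than the calls. Of the 85 members whose mean was at least 10 scaled counts, 73 were higher and 12 lower in dKO, and the median log2 ratio, dKO over control, was 0.19 (1.14-fold) with quartiles of 0.10 and 0.25. Over all 15446 tested genes with such a mean, 49.0% were higher and the median was -0.01. Those other protein-coding genes, 7109 with means between 571 and 8708 scaled counts (the range that holds most members), had a median of 0.01, with 546 that rose and 438 that fell in the authors' deposited table. Summed over all members, the means went from 356347 to 414775 scaled counts, a log2 ratio of 0.22. In sorted bulk cells, more cells of one state and more RNA per cell cannot be told apart.

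**Figure D1:**
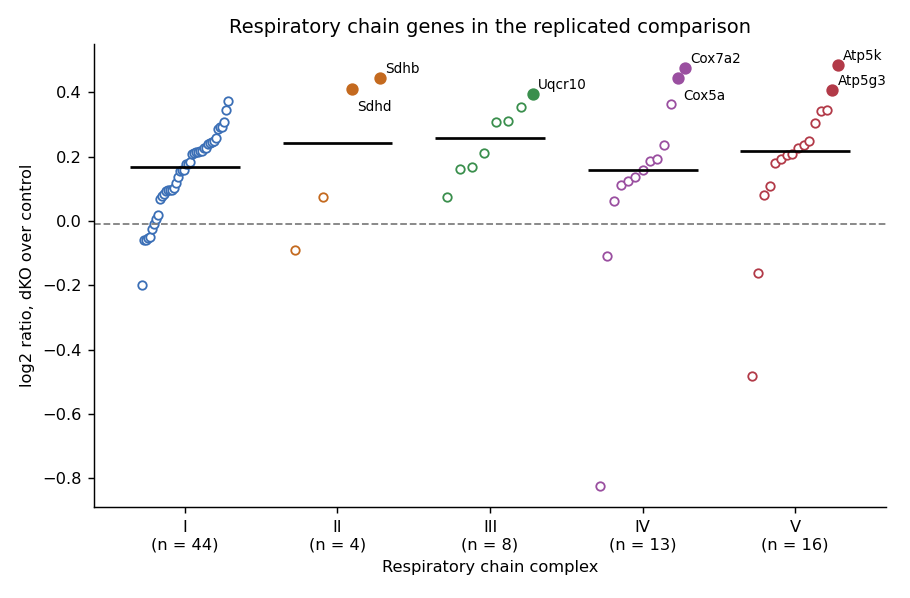
Log2 ratio of scaled counts, dKO over control (vertical axis), for the 85 respiratory chain genes with a mean of 10 or more, by complex (horizontal axis) and ordered by ratio within it. Filled points passed the authors' adjusted p under 0.05, black bars are medians (0.17, 0.24, 0.26, 0.16 and 0.22 for complexes I to V), and the dashed line is the median of all genes at -0.01; the 7 filled points lie between 0.40 and 0.49.

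Complex I, the entry point for electrons of NADH, had no member that passed. Of its 44 members with a mean of 10 or more, 37 were higher and 7 lower in dKO, with a median log2 ratio of 0.17. The 7 core subunits that bind NADH and hold the iron-sulphur clusters (among them Ndufv1, Ndufs1, Ndufs7 and Ndufs8) had a median of 0.16, and 6 of them were higher. Among these, Ndufs8 went from 2919 scaled counts to 3574 (log2 0.29, adjusted p 0.248) and Ndufs7 from 2928 to 2831 (log2 -0.05, adjusted p 1) in the authors' deposited table. No core subunit passed, and the core was not tested against the rest of the complex.

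The 29 accessory subunits, which surround the core and stabilise it, had 26 higher and 3 lower, with a median of 0.18. Ndufb6 had the smallest adjusted p of complex I in the authors' deposited table, 0.0859, with means of 1399 and 1812 scaled counts (log2 0.37). Ndufb8 followed in the authors' deposited table with 2597 and 3299 scaled counts (log2 0.35, adjusted p 0.118). Both code for subunits of the membrane arm, and both overlap another gene, so part of their counts may belong to it. Ndufa11, a membrane arm subunit at the contact with complex III in supercomplexes, had 1818 and 2225 scaled counts (log2 0.29, adjusted p 0.263) in the authors' deposited table. Ndufa6 was the accessory subunit with the lowest ratio, at 3123 and 2721 scaled counts (log2 -0.20, adjusted p 0.688) in the authors' deposited table.

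The assembly factors Ndufaf1 to Ndufaf7, which build complex I and leave it, were less uniform in sign, with 4 higher and 3 lower and a median of 0.10. Ndufaf3 had 499 and 618 scaled counts (log2 0.31, adjusted p 0.378) and Ndufaf4 905 and 870 (log2 -0.06, adjusted p 1) in the authors' deposited table. None of the 7 passed, and the difference between assembly factors and subunits was not tested. Ndufa4, first assigned to complex I and now known as a subunit of complex IV, had 3476 and 4025 scaled counts (log2 0.21, adjusted p 0.646) in the authors' deposited table. Its paralogue Ndufa4l2, a hypoxia-induced gene, had 1 read in the control libraries and 3 in the dKO libraries, close to no expression.

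Complex II, which is succinate dehydrogenase and also an enzyme of the citric acid cycle, was split between its subunits. Sdhb, the iron-sulphur subunit, rose from 5819 scaled counts to 7915 (log2 0.44, adjusted p 0.0146) in the authors' deposited table. Sdhd, one of the membrane anchors that bind coenzyme Q, rose from 3491 scaled counts to 4641 (log2 0.41, adjusted p 0.0378) in the authors' deposited table. Their partners did not pass: the flavoprotein Sdha, with 8971 and 8437 scaled counts (log2 -0.09, adjusted p 1), and the other anchor Sdhc, with 2960 and 3121 (log2 0.08, adjusted p 1), in the authors' deposited table. The 4 subunits assemble in equal numbers, yet their group means moved unequally, and the difference between subunits was not tested.

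Complex III, which passes electrons from coenzyme Q to cytochrome c, had all 8 of its members higher in dKO, with a median log2 ratio of 0.26. Uqcr10, a small subunit beside cytochrome c1, rose from 2571 scaled counts to 3381 (log2 0.40, adjusted p 0.0488), just inside the threshold of the authors' deposited table. Uqcrfs1, the Rieske iron-sulphur protein that moves electrons onward, had 4378 and 5604 scaled counts (log2 0.36, adjusted p 0.0865) in the authors' deposited table. The small subunit Uqcrq had 3092 and 3836 scaled counts (log2 0.31, adjusted p 0.181) in the authors' deposited table. The large core proteins Uqcrc1 and Uqcrc2 were at 0.17 and 0.16, and Uqcrh, the hinge protein, at 0.07 as log2 ratios in the authors' deposited table.

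Complex IV, cytochrome c oxidase, had 2 genes that rose among its 11 common isoforms, of which 10 were higher (median 0.19). Cox7a2, the form of subunit 7a found in most tissues, had the smallest adjusted p of all members, rising from 3251 scaled counts to 4522 (log2 0.48, adjusted p 0.0074) in the authors' deposited table. Cox5a, a subunit on the matrix side, rose from 4417 scaled counts to 6012 (log2 0.44, adjusted p 0.0155) in the authors' deposited table, and it overlaps another gene. Cox5b, a zinc-binding matrix-side subunit, was just outside the threshold at 4313 and 5551 scaled counts (log2 0.36, adjusted p 0.0767) in the authors' deposited table. Cox7a2l, a relative of Cox7a2 linked to supercomplexes of complexes III and IV, was the common form with the lowest ratio. It had 12331 and 11439 scaled counts (log2 -0.11, adjusted p 1) in the authors' deposited table.

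Of the 7 tissue-restricted isoforms of complex IV, 5 had 9 reads or fewer in either group, while Cox7a1 and Cox6b2 had 37 and 133 reads in the control libraries. Cox6a2, Cox8b and Cox7a1 are forms of striated muscle and brown fat, Cox4i2 is the form of lung, and Cox6b2, Cox7b2 and Cox8c are forms of testis. Recovered reads over the 2 control and 3 dKO libraries were 2 and 2 for Cox6a2, 1 and 0 for Cox8b, 7 and 9 for Cox4i2, 1 and 1 for Cox7b2 and 1 and 0 for Cox8c. Their common partners Cox6a1, Cox8a, Cox4i1 and Cox7b had control means of 5183, 5802, 11272 and 3723 scaled counts in the authors' deposited table. Cox7a1 had 15.3 and 16.6 scaled counts (adjusted p 1) in the authors' deposited table. The isoform with the most reads, Cox6b2, had 59.9 and 51.3 scaled counts in the control libraries and a dKO mean of 31.4 (log2 -0.82, adjusted p 0.204 in the authors' deposited table). That dKO mean lies below both control libraries, and its common partner Cox6b1 had 3058 and 3600 scaled counts (adjusted p 0.501) in the authors' deposited table.

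Markers of skeletal muscle and fat were measured, and none of lung or testis. The 6 skeletal muscle markers summed to 100 scaled counts in control and 87.5 in dKO, with Tnnt3 at 52.3 and 30.7 (adjusted p 0.318), Acta1 at 39.4 and 46.8 and the creatine kinase gene Ckm at 2.68 and 2.96, in the authors' deposited table. The 6 adipocyte markers summed to 30.2 and 22.9, with Ucp1 listed at 0 in control and 1.08 in dKO, in the authors' deposited table. Of either list 0 members were called in the authors' deposited table, and the part of such cells in Cox6b2 was not tested.

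Complex V, the ATP synthase, held 2 of the genes that rose. The head that makes ATP (Atp5a1, Atp5b, Atp5c1, Atp5d and Atp5e) was higher in 5 of 5 subunits, with a median of 0.21 and 0 calls. Atp5b, the catalytic beta subunit, had 36124 and 45827 scaled counts (log2 0.34, adjusted p 0.0973) in the authors' deposited table, and it overlaps another gene. The stalk that holds the head in place (Atp5f1, Atp5h, Atp5j and Atp5o) was higher in 4 of 4, with Atp5h at 5956 and 7564 scaled counts (log2 0.34, adjusted p 0.114) in the authors' deposited table. Among genes for the ring of c subunits that turns with the proton flow, Atp5g3 rose from 12583 scaled counts to 16673 (log2 0.41, adjusted p 0.0301) and Atp5g1 had 4922 and 5765 (log2 0.23, adjusted p 0.5003) in the authors' deposited table.

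Atp5k codes for the small e subunit, which helps synthase dimers form. Its control libraries had 1394 and 1228 scaled counts, and the dKO mean was 1835. The dKO mean lies above both control libraries, at a log2 ratio of 0.40 against the deeper and 0.58 against the other. Over the groups the log2 ratio was 0.49, the highest of the members with a mean of 10 or more, and adjusted p was 0.0124 in the authors' deposited table. Atp5s and Atp5sl, which are not subunits of the enzyme, were the only members of the complex V symbols with a mean of 10 or more that were lower in dKO. Atp5s had 124 and 134 scaled counts in the control libraries and a dKO mean of 92.3 (log2 -0.48, adjusted p 0.356 in the authors' deposited table).

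Because scaled counts are whole reads over a size factor, the mean of 2 control libraries could be split into its reads for 33 members with a mean of 10 or more. In 11 the split is unique, and in 22 it is unique only if the control libraries lie within 2-fold of each other, which was assumed. Among the 11 unique splits the dKO mean was above both control libraries in 4, below both in 2 (Cox6b2 and Atp5s) and between them in 5. Among the 22 that rest on the assumption it was above both in 19, below both in 1 (Atp5sl) and between them in 2. Together these make 23, 3 and 7 of 33. The position of the dKO mean was not counted for genes outside the members. These counts thus have no share over all genes beside them and are not read as a trait of the members. The control libraries differed by a median of 0.12 on the log2 scale in the unique splits, up to 0.48 for Cox7a1. In the others the median difference was 0.06, a value that the assumption itself limits. Their dKO libraries could not be split, and the spread within dKO is not shown by these values.

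**Figure D2:**
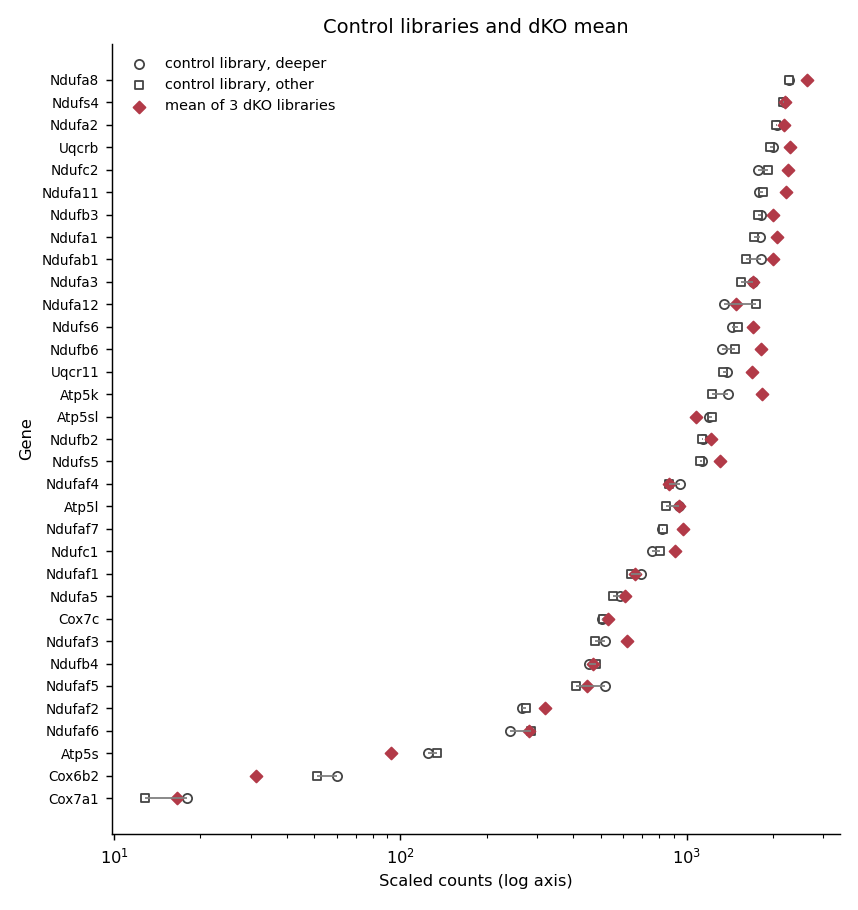
Scaled counts (horizontal log axis) of 33 respiratory chain genes (vertical axis): open symbols are the 2 control libraries, the diamond is the mean of the 3 dKO libraries. The diamond lies to the right of both open symbols in 23 genes and to the left of both in 3, with Atp5k at 1394 and 1228 against 1835. No such count was made over other genes.

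Promoters are shown for 3 of the genes that rose, since respiratory chain genes are known to share binding sites of the factors NRF1, GABPA (an ETS factor) and YY1, and since the Id proteins hold back E proteins, which bind E boxes. The windows run from 250 bases before to 50 bases after the RefSeq start site (GRCm38.p6), 5′ to 3′ on the gene's strand. They lie at chr4:140961021-140961320 (+ strand) for Sdhb, chr5:108434350-108434649 (- strand) for Atp5k and chr9:50603800-50604099 (- strand) for Sdhd. Capitals mark matches, on either strand, to GCGCATGC (NRF1), CCGGAAG (ETS), AAGATGGC (YY1), CAGGTG or CAGCTG (E boxes).
Sdhb: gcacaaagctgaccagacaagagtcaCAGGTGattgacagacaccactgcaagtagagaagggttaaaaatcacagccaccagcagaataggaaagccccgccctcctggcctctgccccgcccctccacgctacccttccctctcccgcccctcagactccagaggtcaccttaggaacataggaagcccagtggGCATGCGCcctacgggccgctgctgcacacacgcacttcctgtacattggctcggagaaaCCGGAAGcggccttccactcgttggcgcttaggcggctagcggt
Atp5k: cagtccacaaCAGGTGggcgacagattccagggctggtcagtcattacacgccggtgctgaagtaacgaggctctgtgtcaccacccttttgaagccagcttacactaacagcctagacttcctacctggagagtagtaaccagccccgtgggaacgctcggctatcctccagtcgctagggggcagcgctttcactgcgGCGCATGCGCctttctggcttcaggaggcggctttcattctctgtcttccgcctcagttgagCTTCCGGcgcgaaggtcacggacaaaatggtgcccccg
Sdhd: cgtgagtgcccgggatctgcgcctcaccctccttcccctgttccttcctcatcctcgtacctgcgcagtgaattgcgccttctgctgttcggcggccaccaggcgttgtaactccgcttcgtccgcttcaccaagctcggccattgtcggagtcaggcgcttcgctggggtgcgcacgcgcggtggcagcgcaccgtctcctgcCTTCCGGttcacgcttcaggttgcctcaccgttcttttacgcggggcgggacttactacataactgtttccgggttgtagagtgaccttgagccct

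In the Sdhb window an E box begins 224 bases before the start site, an NRF1 match 54 bases before it and an ETS match just after it. The Atp5k window has the same kinds of match in the same order, with 2 NRF1 matches that overlap on opposite strands, and the Sdhd window has an ETS match 46 bases before the start. The windows of Uqcr10, Atp5g3, Cox5a and Cox7a2 held none of these letters, so no motif searched is common to the genes that rose. Over the 76 members with a window, NRF1 letters were in 12 (15.8%), against 3.05% of 27025 genes and 6.04% of 9557 expressed protein-coding genes. YY1 letters were in 14.5% of members, against 3.19% of all and 5.22% of expressed genes. ETS letters were in 22.4%, against 9.93% and 20.1%. For E boxes the shares were 19.7% of members, 22.6% of all and 21.4% of expressed genes with CAGGTG, and 7.89%, 18.3% and 18% with CAGCTG. A match is a run of letters and not a shown binding site.

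Several members have near-identical copies elsewhere in the genome, and for these the counts of the gene alone are uncertain. The clearest case is Cox7c (chromosome 13), whose coding sequence of 192 bases is found unchanged in the pseudogene Gm12338 on chromosome 11. It is printed here because a read that lies within it has the same letters at both loci.
Cox7c: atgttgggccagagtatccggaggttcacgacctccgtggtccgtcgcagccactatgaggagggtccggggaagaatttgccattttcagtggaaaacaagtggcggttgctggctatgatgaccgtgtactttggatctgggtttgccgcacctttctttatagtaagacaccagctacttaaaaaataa

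Cox7c had group means of 507 (control) and 530 (dKO) scaled counts, while Gm12338 had 3635 and 4146, in the authors' deposited table. Cox7c itself thus held 12.2% of the control sum over it and its copies, and the sum had a log2 ratio of 0.18 where Cox7c alone had 0.06. For Atp5g2, a c-ring gene on chromosome 15, the gene held 0.0923% of the sum: it had 7.62 and 3.23 scaled counts beside 7604 and 7993 for its copy Gm10175 in the authors' deposited table. Atp5l, the g subunit, held 25.8% of the sum with Gm10221 and others, and Ndufb4 held 43.4% of the sum with Gm3244. In these 4 genes the listed value says little of the transcript, and every sum had a log2 ratio between 0.07 and 0.18. Ndufa12 also changed sign, from -0.06 alone to 0.10 with its copy Gm15920. None of the 7 genes that rose had a copy with more than 1 scaled count.

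**Figure D3:**
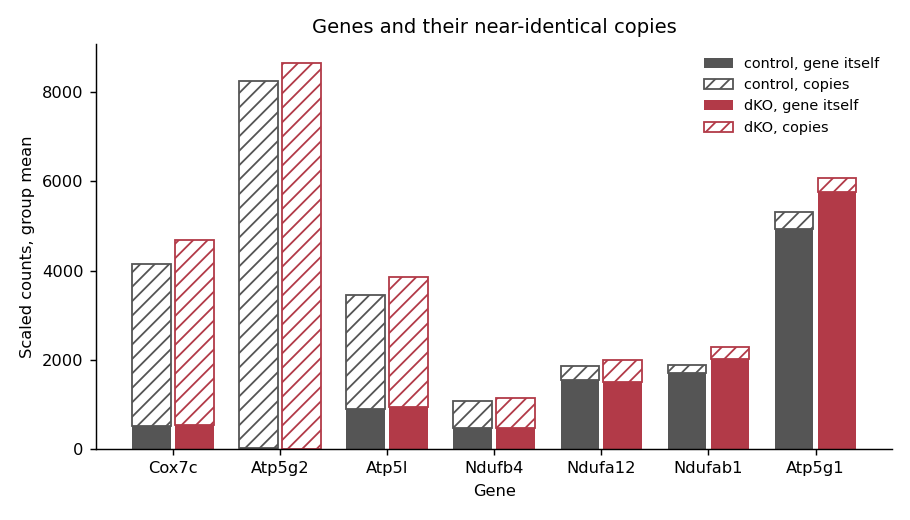
Scaled counts as group means (vertical axis) for 7 respiratory chain genes (horizontal axis), with control in grey and dKO in red. Solid bars are the gene itself and hatched bars its near-identical copies; for Cox7c and Atp5g2 most of the bar is hatched (the gene itself is 12.2% and 0.0923% of the control sum).

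The 13 subunits encoded by mitochondrial DNA were listed at 0 in both groups, with no p, so the table gives no measure of them. Nuclear copies of some of them did carry counts. Gm13340, a copy of mt-Co1 on chromosome 2, had group means of 110914 and 113287 scaled counts in the authors' deposited table, more than any nuclear subunit. Gm13341, a copy of mt-Co2, had 62616 and 61070, and Gm10222, a copy of mt-Nd4l, had 5785 and 6393, in the authors' deposited table. A stretch of 120 bases (positions 1174 to 1293 of the mt-Co1 transcript), chosen for having the most differences, is shown. Its 6 differing bases are in capitals.
mt-Co1: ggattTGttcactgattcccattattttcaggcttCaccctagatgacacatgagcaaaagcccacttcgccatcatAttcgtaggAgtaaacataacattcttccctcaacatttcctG
Gm13340: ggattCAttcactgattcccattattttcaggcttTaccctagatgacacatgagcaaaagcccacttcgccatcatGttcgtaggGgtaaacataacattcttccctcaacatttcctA

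Over 1545 bases the sequences differ at 37, an identity of 97.6%. Stretches between the differing bases would be the same in reads of either. Which of them the counted reads came from was not tested, and nothing is read from these counts about the mitochondrial subunits.

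The unnumbered pair was measured in FPKM, a fragment count scaled for transcript length and library depth, which is meant to make levels comparable between genes. In the library labelled control the highest members were Cox4i1 at 773 FPKM, Atp5g3 at 736, Atp5e at 695, Atp5b at 640 and Uqcrh at 516. The highest of complex I was Ndufa3 at 510 FPKM and of complex II Sdhb at 255. With 1 library for each label there is no spread, so neighbours in this order cannot be said to differ. At the low end, Cox6a2, Cox7b2 and Cox8c were listed at 0 FPKM and Ndufa4l2 at 0.104. In complexes II and III the lowest were Sdhd at 94.4 FPKM and Uqcrb at 46.03, and in complex V Atp5g2 at 0.179.

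Some levels depended on the table. Cox7a2l had the highest control mean per kilobase of exon in the replicated comparison, 10750 scaled counts, but ranked 30 at 181 FPKM. Ndufa3, at 510 FPKM, had 1901 scaled counts per kilobase. Atp5l was at 0.768 FPKM and Atp5g1 at 7.54 in the library labelled control, although their control means per kilobase of exon were 1743 and 1002 scaled counts, within the range of other subunits. Both have near-identical copies, and the tables were made with different aligners and annotations. These FPKM values were not used to rank the genes' true levels.

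In the pair, 64 of 81 members at or above 5 FPKM in either library were higher in the library labelled dKO and 17 were lower. Their median log2 ratio of FPKM plus 1 was 0.24, against 0.01 over all 8661 genes past the same filter, of which 50.9% were higher. By complex the medians were 0.22 (I), 0.27 (II), 0.35 (III), 0.28 (IV) and 0.18 (V). With no filter on low FPKM the medians of complexes IV and V were 0.13 and 0.09. On FPKM plus 1, a difference of 1.5-fold or more was met by 1 member higher, Uqcrfs1 (115 and 175 FPKM), and 1 lower, Cox7a1 (5.84 and 1.89 FPKM), and Sdhd lay just under the threshold. Over all genes 7.96% were higher and 9.33% lower by that much. Id2 was 18.6 FPKM in the control-labelled and 9.69 in the dKO-labelled library, and Id3 160 and 221, so of the deleted genes only Id2 was lower in the dKO-labelled library. Of other genes that rose in the replicated comparison, Ctla4 was at 182 and 408 FPKM, Mki67 at 23.4 and 46.2 and Prdm1 at 6.20 and 10.9. Some glycolysis genes that rose, under 5 FPKM in the pair, were lower in the dKO-labelled library. The share of all genes that rose and were higher in the pair was not counted.

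All 7 genes that rose in the replicated comparison were higher in the library labelled dKO. Sdhb went from 255 to 314 FPKM, Sdhd from 94.4 to 142 and Uqcr10 from 334 to 457. Cox7a2 went from 153 to 188 FPKM, Cox5a from 246 to 335, Atp5k from 260 to 358 and Atp5g3 from 736 to 934. On the log2 scale of FPKM plus 1 the differences ran from 0.30 for Cox7a2 and Sdhb to 0.58 for Sdhd, without a replicate to judge them by. Of the 81 members, 60 were higher in both comparisons and 6 lower in both, while 11 were higher in the replicated means and lower in the pair, and 4 the reverse. Sdha was lower in both, at 102 and 90.4 FPKM, and Cox7a1 had the largest gap between comparisons.

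**Figure D4:**
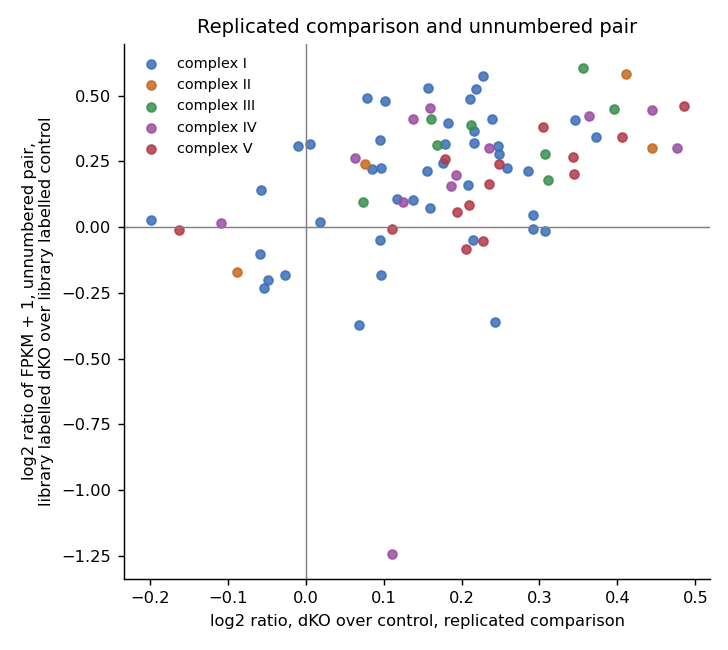
Log2 ratio of scaled counts in the replicated comparison (horizontal axis) and log2 ratio of FPKM plus 1 in the unnumbered pair (vertical axis) for 81 respiratory chain genes, coloured by complex. To the upper right of the zero lines lie 60 genes and to the lower left 6; the point far below is Cox7a1.

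Other genes of the pathway were taken from fixed lists. Of 12 nuclear genes outside the symbol rule (among them subunits, cytochrome c and its testis form, complex III assembly factors, the synthase inhibitor Atpif1 and the cristae gene Minos1), 0 passed in the authors' deposited table, with Cycs (cytochrome c) at 670 and 882 scaled counts (log2 0.40, adjusted p 0.121) and Cyc1 (cytochrome c1) at 5917 and 6869 (log2 0.22, adjusted p 0.563). Of 19 tested genes for complex IV assembly, 1 rose: Cox17, a copper chaperone, from 1914 scaled counts to 3101 (log2 0.70, adjusted p 0.0001) in the authors' deposited table. That is a larger ratio than that of any complex IV subunit with a mean of 10 or more, beside a median of 0.05 for its list. Of 7 complex I assembly genes outside the Nduf symbols, of 2 for complex II and of 3 for complex V, 0 passed in the authors' deposited table. Of 13 coenzyme Q genes, 2 rose, Adck3, a kinase-like protein of the pathway (log2 0.48, adjusted p 0.0266) and Pdss1, which starts the side chain (log2 0.53, adjusted p 0.0374), in the authors' deposited table.

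The citric acid cycle and pyruvate dehydrogenase, which feed the chain with NADH and succinate, had a median of 0.14, and its list of 20 held 5 that rose and 0 that fell in the authors' deposited table. Idh2, the mitochondrial NADP-dependent isocitrate dehydrogenase, rose from 1798 scaled counts to 2891 (log2 0.68, adjusted p 2.93e-05) in the authors' deposited table. Also higher there were Pdk1 (log2 0.43), a kinase that inhibits pyruvate dehydrogenase, Idh3a (0.43), Fh1 (0.41) and Mdh2 (0.39), per the authors' deposited table. Fh1 (fumarase) and Mdh2 act right after complex II in the cycle, and Sdha, as above, did not pass.

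Among 15 factors that control respiratory chain genes 0 passed in the authors' deposited table, with a median of 0.00 over the 14 with a mean of 10 or more. At an unadjusted p under 0.05 there were 2 in the authors' deposited table, both lower: the coactivators Ppargc1b (430 and 309 scaled counts, adjusted p 0.0642) and Pprc1 (2530 and 1953, adjusted p 0.0792). Nrf1, Gabpa and Yy1, whose motifs were searched, had log2 ratios of 0.13, 0.22 and 0.04 (adjusted p 1, 0.594 and 1) in the authors' deposited table. In the pair Ppargc1b had 3.35 and 3.86 FPKM and Pprc1 17.01 and 15.1. The values of Ppargc1b differed in direction from the replicated comparison. Both lie under the filter of 5 FPKM, with 1 library per label, so no direction is read from them.

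Glycolysis, the route that makes pyruvate in the cytosol, is given for scale. Its 18 genes had a median log2 ratio of 0.53, and the authors' deposited table called 11 higher and 0 lower. The respiratory chain median there was 0.19. In the pair the medians were 0.30 over the 14 glycolysis genes past the FPKM filter and 0.24 for the respiratory chain. That filter left out glycolysis genes that rose in the replicated comparison, so the glycolysis medians of the comparisons cover different genes. The difference between the lists was not tested. The proliferation marker gene Mki67 rose, with group means of 11467 and 25001 (adjusted p 0.0495) in the authors' deposited table, and its part in the respiratory chain values was not tested.

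**Figure D5:**
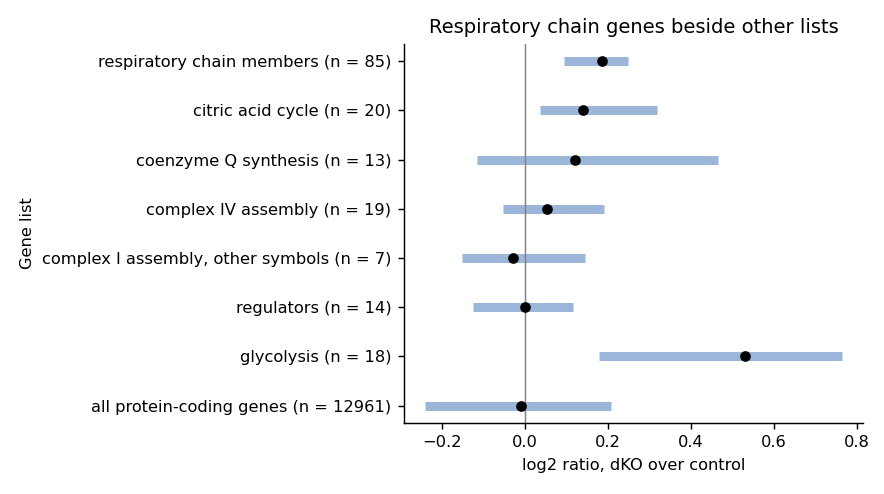
Median (point) and quartiles (bar) of the log2 ratio, dKO over control (horizontal axis), for gene lists (vertical axis, n being the genes with a mean of at least 10). The respiratory chain median is 0.19 and that of glycolysis 0.53, while all protein-coding genes have -0.01.

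Markers of other immune cells were low beside Cd3e, which had 21965 and 23378 scaled counts in the authors' deposited table. The 6 B cell markers summed to 988 and 1074, of which Cd79b made up most, with Ms4a1 at 1.76 and 1.47, in the authors' deposited table. The 6 myeloid markers found summed to 126 and 145 and the 5 dendritic cell markers to 168 and 110, with Xcr1 falling (adjusted p 0.0012), in the authors' deposited table. The 5 plasma cell markers found summed to 5024 and 8602, almost all of it Xbp1 and Prdm1, which regulatory T cells also express, while Igj was at 70.3 and 133 (adjusted p 0.234), Sdc1 at 23.4 and 27.997 and Tnfrsf17 at 1.24 and 0, in the authors' deposited table. Prdm1 rose (log2 0.80, adjusted p 0.0124) in the authors' deposited table. The part of such cells in the respiratory chain values was not tested.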

How the data were processed

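The members and gene lists were chosen with earlier results of these data known. RNA was sequenced in 7 libraries; per the labels' protocols strand was marked with dUTP, with its use in counting not given in the sources used here. In the replicated comparison, the authors deposited a signal (counts over a size factor, averaged by group), its log2 ratio, a signed ratio score and p-values, made with RSEM and DESeq on mm10 (GRCm38), per the submitters' processing notes. The table's header calls the abundances raw counts, but they are fractional. For the pair, the authors deposited FPKM with p-values and q-values from TopHat 1.4.0 and Cuffdiff (version given as 0.0.6) on mm9, per the submitters' processing notes; no coordinates of that build are used.

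The deposited adjusted p under 0.05 is the test, because group means allow no count test per library. Recomputed log2 ratios and adjusted p-values differed from the deposited ones by at most 0.000211 and 0.00124. Medians use genes with a mean of 10 or more. Control reads were recovered from the steps in the means: all 20257 control values under 480 have exactly 1 solution. Above that, splits within 2-fold were accepted for means under 2300, a limit set after the values were seen; it left out Ndufv1, with which 34 members were split and the counts above, below and between were 23, 3 and 8. Which control library is replicate 1 or 2 is unknown. Code was tested on simulated data.

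In the pair, FPKM was summed over a gene's transcripts, log2 ratios used a pseudocount of 1 FPKM, and genes with 5 FPKM or more in 1 library entered; 26977 of 27901 entries (96.7%) matched a gene, and 92 of 93 members had an entry. Its depth is unknown. Copies are transcripts of GENCODE M21 with 95% identity over 100 bases or more, 80% of the shorter and 25% of the member's transcript (blastn 2.17.0). In all, 28 members overlap another gene. Named genes are all members called, the 3 per complex with the largest ratio or smallest adjusted p, those with the highest and lowest FPKM, paralogue pairs, mitochondrial subunits and called genes of each list; others were chosen after their values were seen. Some genes are not reported here by name. Python 3.11.15, numpy 2.4.6 and pandas 2.3.3 were used. Alternatives tried were other adjustments, thresholds, scalings, filters, pseudocounts and left-out control libraries.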

Additional observations from a re-analysis of the deposited data

How the results depend on the processing

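No paired analysis was possible because the deposited values of the replicated comparison are group means, which carry no replicate numbers. The number of members called, 7, became 11 when adjusted over genes with a mean of 10 or more, 11 at an adjusted p under 0.1 and 1 at an adjusted p under 0.01. By complex, the adjustment over genes with a mean of 10 or more gave 1 call in complex I and 2 each in complexes II and III. Complexes IV and V had 3 calls each under that adjustment. An adjusted p under 0.1 gave the same counts by complex. An adjusted p under 0.01 left 0 in complexes II, III and V and 1 in complex IV, which also had 1 without members that overlap another gene. At that threshold coenzyme Q genes had 0 calls and citric acid cycle genes 1. The regulators had 2 calls, Ppargc1b and Pprc1, when adjusted over genes with a mean of 10 or more or at an adjusted p under 0.1, and 1 when adjusted over protein-coding genes. All calls of members under these alternatives were higher in dKO. Median log2 ratios by complex, in both comparisons, kept their sign under every scaling, filter, pseudocount and transcript choice tried, though without the filter on low FPKM the pair's medians went from 0.28 to 0.13 in complex IV and from 0.18 to 0.09 in complex V. For 7 of the 33 members split into control libraries the sign of the ratio depended on which control library was used. None of these 7 was called, but of the genes that rose only Atp5k was among the 33. The others that rose could not be set against each control library, and no test can be rerun on means. The dKO libraries could not be left out one at a time. Depth limits the silent isoforms, which had 0 to 9 reads per group.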
